A study of Mus musculus with 2 samples.

Results

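The genes of the VEGF family, 9 of the 24060 genes listed in 2 single-cell libraries of mouse spinal cord, were followed through the ependymal, endothelial and mural cells that a CD133 sort had captured. They were chosen by name and not by their values. They were the ligand genes Vegfa, Vegfb, Vegfc and Pgf, the receptor tyrosine kinase genes Flt1 (VEGF receptor 1), Kdr (VEGF receptor 2) and Flt4 (VEGF receptor 3), and the neuropilin genes Nrp1 and Nrp2. All 9 had counts in both libraries as a whole.

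The mice in both libraries were C57BL/6j animals of 10 to 12 weeks with the genotype Clec9a cre/cre R26 LSLtdTomato/LSLtdTomato. In every group both Clec9a alleles carried Cre recombinase (the gene encodes DNGR-1, a receptor of dendritic cells) and both Rosa26 alleles a tdTomato reporter behind a stop cassette, and no wild-type animal was included. Cells that had once switched on Clec9a, and their progeny, turn red. The study describes mice of this genotype as deficient in Clec9a. Myelin-depleted spinal cord cells were sorted as live, CD45- and CD133+, with tdTomato+ cells in the DNGR-1-traced library and tdTomato- cells in the non-traced library. CD133 (prominin 1) lies on ependymal cells, which line the central canal, and on endothelial cells. How many spinal cords went into each library was not given in the sources used here, and where Cre had not acted, cells of the traced lineage would have been sorted as non-traced.

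VEGF signalling builds and maintains blood vessels. VEGF-A binds the receptor kinases FLT1 and KDR. KDR carries most of the growth signal in endothelium, while FLT1 binds the ligand tightly and signals weakly. VEGF-B and placental growth factor (Pgf) bind FLT1, and VEGF-C binds FLT4 and, once processed, KDR. Neuropilins are co-receptors with short intracellular parts. Neuropilin 1 works mainly with KDR in arteries and capillaries, neuropilin 2 with FLT4 in veins and lymphatic vessels, and both also bind class 3 semaphorins. In the central nervous system astrocytes and neurons are known sources of VEGF-A.

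The unit of measurement was the unique molecular identifier (UMI), which stands for 1 captured RNA molecule read at its 3′ end. UMIs were summed over the cells of a group and given as CPM, counts scaled to 1000000 UMIs of that group, with exact 95% Poisson intervals in brackets, and shares of cells have exact Clopper-Pearson intervals. Differences were taken as log2(CPM + 1), and a gene counted as higher or lower from a 2-fold difference on. Each sort was 1 library. No test across replicates was possible, cells were not used as replicates, and the intervals cover counting error alone. For a group with 0 UMIs of a gene, the level that a count of 0 allows is given as the floor of 3 counts over that group. Levels were compared between cell groups and not between genes.

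There were 25411 non-traced cells (median 7218 UMIs, 1011 to 70509) and 4825 traced cells (median 8566 UMIs, 1013 to 41258). Only 42 cell barcodes occurred in both. Cells were clustered within each library without the VEGF genes and named from marker lists. In the traced library 4710 cells were ependymal-like, with Foxj1, a regulator of motile cilia, at 474 CPM, and 64 cells were endothelial-like. In the non-traced library 1181 cells were ependymal-like (Foxj1 at 501 CPM), and 14177 capillary-like, 3863 arterial-like and 2689 venous-like cells made up the endothelium, with the tight junction gene Cldn5 at 7879, 7187 and 7683 CPM. Mural cells, the contractile cells wrapped around vessels, were few: 77 pericyte-like cells with Pdgfrb, a pericyte receptor gene, at 1364 CPM and 87 smooth muscle-like cells with Acta2, the smooth muscle actin gene, at 14308 CPM. A further 40 astrocyte-like cells (Slc1a2, a glutamate transporter gene, at 4993 CPM) and 22 fibroblast-like cells were kept as references for the ligands.

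Endothelial marker RNA moved with several results in the non-traced library. The 10 endothelial marker genes summed to 22233 CPM in endothelial-like cells, 893 CPM in the ependymal-like cells of that library, 1273 CPM in its pericyte-like and 880 CPM in smooth muscle-like cells, but only to 5.14 CPM in traced ependymal-like cells. Most cells in mural clusters, 2138 with pericyte and 272 with smooth muscle markers, carried full sets of endothelial markers as well. They were left out, as were 715 cells with ependymal and endothelial markers. Mural cells kept here had under 0.2% of their UMIs in endothelial markers. In the pericyte clusters 52 cells lay near that limit, between 0.15% and 0.25%, and 22 did in the smooth muscle clusters.

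On GRCm38, Flt1 (ENSMUSG00000029648) occupies chromosome 5, positions 147561604 to 147726011, on the minus strand, and Kdr (ENSMUSG00000062960) lies on the same chromosome and strand at 75932827 to 75978458. Flt4 is on chromosome 11 (49609263 to 49652739, plus strand). Nrp1 and Vegfc share chromosome 8, at 128358604 to 128503363 and at 54077606 to 54187096, both on the plus strand. Nrp2 is on chromosome 1 (62703285 to 62818695, plus strand), Vegfa on chromosome 17 (46016993 to 46032369, minus strand), Vegfb on chromosome 19 (6982473 to 6987651, minus strand) and Pgf on chromosome 12 (85166635 to 85177790, minus strand). All 9 are protein-coding genes. Nrp2 overlaps Gm37121 on its own strand and the antisense gene Gm29083, so reads could have been split between them, and Nrp1 overlaps the microRNA gene Mir1903.

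The promoters of Flt1 and Kdr are shown because these receptor kinase genes shared the endothelial pattern described below. Each sequence is the 250 bases before the RefSeq start (GRCm38.p6, minus strand, written 5′ to 3′), with the core GGAA of ETS factor sites, or its complement TTCC, in capitals. ETS factors are regulators of many endothelial genes.
Flt1, chr5:147726012-147726261: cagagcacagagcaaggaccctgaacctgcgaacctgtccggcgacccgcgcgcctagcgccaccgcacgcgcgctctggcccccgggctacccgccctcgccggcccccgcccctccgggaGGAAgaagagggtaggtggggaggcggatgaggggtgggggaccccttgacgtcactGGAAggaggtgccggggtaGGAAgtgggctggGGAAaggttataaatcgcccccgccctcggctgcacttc
Kdr, chr5:75978456-75978705: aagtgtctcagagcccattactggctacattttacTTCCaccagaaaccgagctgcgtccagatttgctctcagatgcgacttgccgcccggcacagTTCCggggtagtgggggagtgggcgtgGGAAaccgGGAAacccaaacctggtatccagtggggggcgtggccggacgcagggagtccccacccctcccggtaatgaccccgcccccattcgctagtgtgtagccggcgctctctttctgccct
Each window held GGAA 4 times over both strands. The same letters occurred in 93.5% of 32841 mouse promoter windows of this length, and 33.4% held at least as many copies. ACGTG, the core of hypoxia response elements, was in neither window and in 16.6% of all. A match of 4 letters is a description of the sequence and does not show a bound site.

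**Figure D1:**
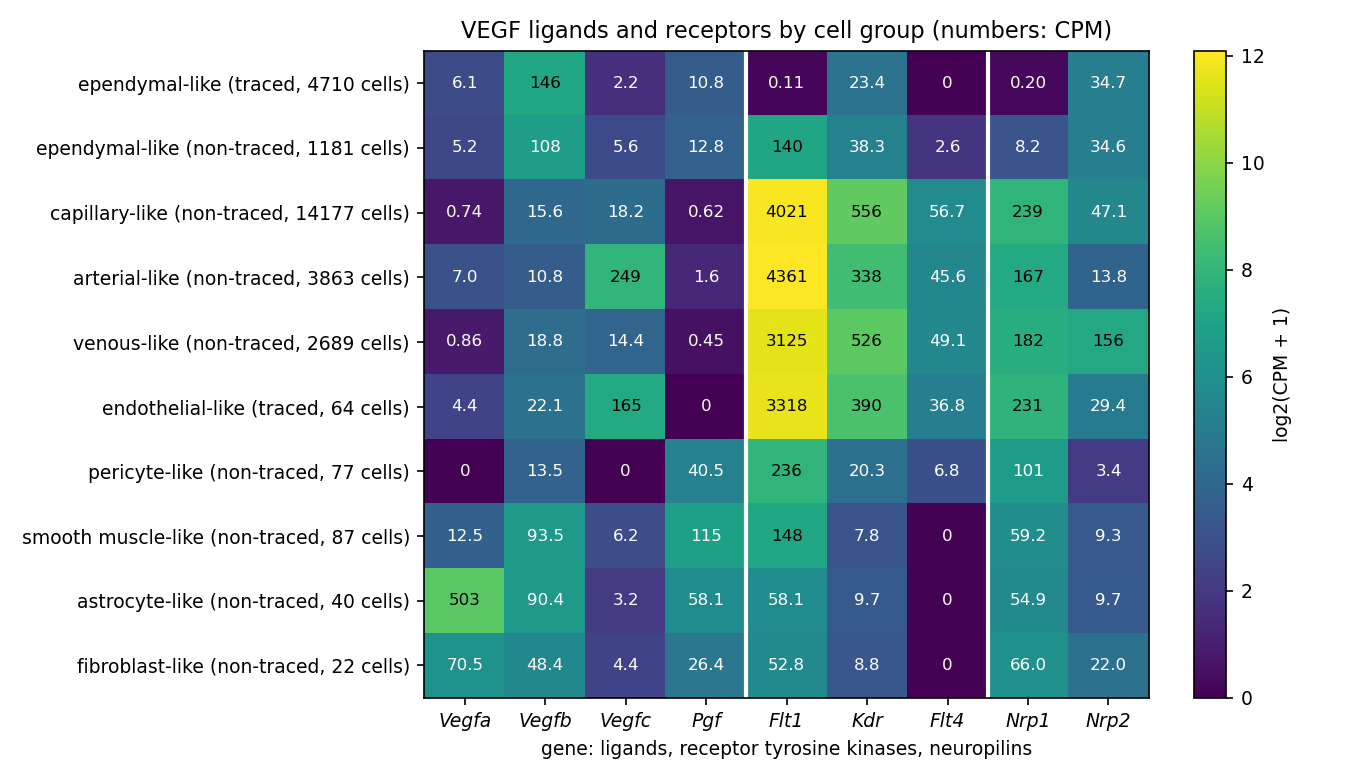
Level of each VEGF gene (columns; ligands, receptor kinases, neuropilins) in 10 cell groups (rows, with library and number of cells); the printed number is CPM and the colour log2(CPM + 1). Receptor kinases were highest in the 4 endothelial-like rows, Vegfb in ependymal-like rows, Vegfa in astrocyte-like cells, Vegfc in arterial-like cells and Pgf in smooth muscle-like cells.

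The comparison of ligands asked which cells could supply VEGF ligands, and whether ependymal cells were among them. Vegfb was highest in ependymal-like cells, Pgf reached its highest levels in smooth muscle-like, astrocyte-like and pericyte-like cells, Vegfc was highest in arterial-like endothelium, and Vegfa was high in the few astrocyte-like cells and low in every ependymal and endothelial group. Among all 9 genes, 5 were at least 2-fold higher and 3 lower in endothelial-like than in ependymal-like cells of the non-traced library. Of the 10493 genes at 10 CPM or more in either group, 19.2% were higher and 26.9% lower by the same measure, and 8 of the 9 reached that level, with 5 higher and 2 lower. The 5 higher genes were Flt1, Nrp1, Flt4, Kdr and Vegfc (by 4.81, 4.54, 3.92, 3.69 and 3.37 on the log2 scale), and the 3 lower genes were the ligands Pgf, Vegfb and Vegfa (by -2.94, -2.76 and -1.01). The median of the 9 differences was 3.37, beside -0.08 over all 10493 genes. Vegfa lay at the threshold, and it passed in 9 of 13 alternative settings.

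Vegfb, whose product binds FLT1, stood at 146 CPM in traced ependymal-like cells (142 to 150) and 108 CPM in their non-traced counterparts (101 to 115). Capillary-like cells had 15.6 CPM (14.8 to 16.3), arterial-like cells 10.8 CPM (9.78 to 11.9), venous-like cells 18.8 CPM (17.3 to 20.4) and traced endothelial-like cells 22.1 CPM (12.4 to 36.4). Smooth muscle-like cells reached 93.5 CPM (71.3 to 120), astrocyte-like cells 90.4 CPM (60.0 to 131) and fibroblast-like cells 48.4 CPM (24.2 to 86.7), while pericyte-like cells had 13.5 CPM on 4 UMIs (3.68 to 34.6). Non-traced ependymal-like cells thus held 7.15 times the endothelial level of 15.1 CPM, and the intervals of ependymal and endothelial groups did not overlap. The non-traced ependymal, smooth muscle and astrocyte levels overlapped one another. After each cell was thinned to 1000 UMIs, 14.1% of traced ependymal-like cells (13.1 to 15.1) and 11.2% of the non-traced ones (9.44 to 13.1) had a Vegfb UMI, against 1.52% of capillary-like cells (1.32 to 1.73), at median depths of 8589, 7217 and 6336 UMIs before thinning. The unthinned shares were 69.6%, 53.4% and 10.8%.

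Vegfa, the main growth signal for vessels, was highest in astrocyte-like cells, at 503 CPM (156 UMIs, 428 to 589) with a UMI in 33 of 40 cells. Fibroblast-like cells had 70.5 CPM (16 UMIs, 40.3 to 114) and smooth muscle-like cells 12.5 CPM (8 UMIs, 5.38 to 24.6). The gene was at 6.12 CPM in traced ependymal-like cells (5.42 to 6.88) and 5.24 CPM in their non-traced counterparts (3.87 to 6.92), at 7.01 CPM in arterial-like (6.20 to 7.90), 0.736 CPM in capillary-like (0.585 to 0.914) and 0.861 CPM in venous-like cells (0.568 to 1.25). Traced endothelial-like cells had 3 UMIs (4.41 CPM) and pericyte-like cells none, which allows up to 10.1 CPM. Ependymal levels were therefore near the arterial one, with overlapping intervals, and far under the astrocyte-like one. The astrocyte-like cells stood apart in quality, with a median of 9.08% mitochondrial UMIs against 3.98% in traced ependymal-like cells, and 1 of the 40 passed a stricter filter of 1000 genes and 5% mitochondrial UMIs. The part of this in their Vegfa level was not tested.

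Vegfc, the ligand of FLT4 best known from lymphatic growth, marked the arterial side of the endothelium. It reached 249 CPM in arterial-like cells (244 to 254), 18.2 CPM in capillary-like (17.4 to 19.0) and 14.4 CPM in venous-like cells (13.1 to 15.8). The 64 traced endothelial-like cells, too few to be split into segments, had 165 CPM (136 to 198). Outside the endothelium it was low, with 2.16 CPM in traced ependymal-like cells (1.76 to 2.63) and 5.56 CPM in their non-traced counterparts (4.15 to 7.29), 4 UMIs in smooth muscle-like, 1 each in astrocyte-like and fibroblast-like cells and 0 in pericyte-like cells. The further FLT4 ligand gene Vegfd, which is no member of the 9, lay between 1.77 and 9.41 CPM in both ependymal-like groups and the endothelial segments, highest in venous-like cells.

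Pgf, whose product binds FLT1, was highest in smooth muscle-like cells and low in endothelium. Smooth muscle-like cells had 115 CPM (74 UMIs, 90.5 to 145) and pericyte-like cells 40.5 CPM (12 UMIs, 20.9 to 70.8), with 58.1 CPM in astrocyte-like (34.4 to 91.8) and 26.4 CPM in fibroblast-like cells (9.70 to 57.5). The smooth muscle and astrocyte intervals overlapped. Traced ependymal-like cells had 10.8 CPM (9.87 to 11.8) and non-traced ones 12.8 CPM (10.6 to 15.3). The endothelial segments stood at 0.619 CPM (capillary-like), 1.6 CPM (arterial-like) and 0.447 CPM (venous-like), and traced endothelial-like cells at 0, which allows up to 4.41 CPM. The ependymal level was 16.0 times the endothelial one in the non-traced library, and after thinning a Pgf UMI was present in 1.30% of traced and 1.27% of non-traced ependymal-like cells and in 0.0564% of capillary-like cells.

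**Figure D2:**
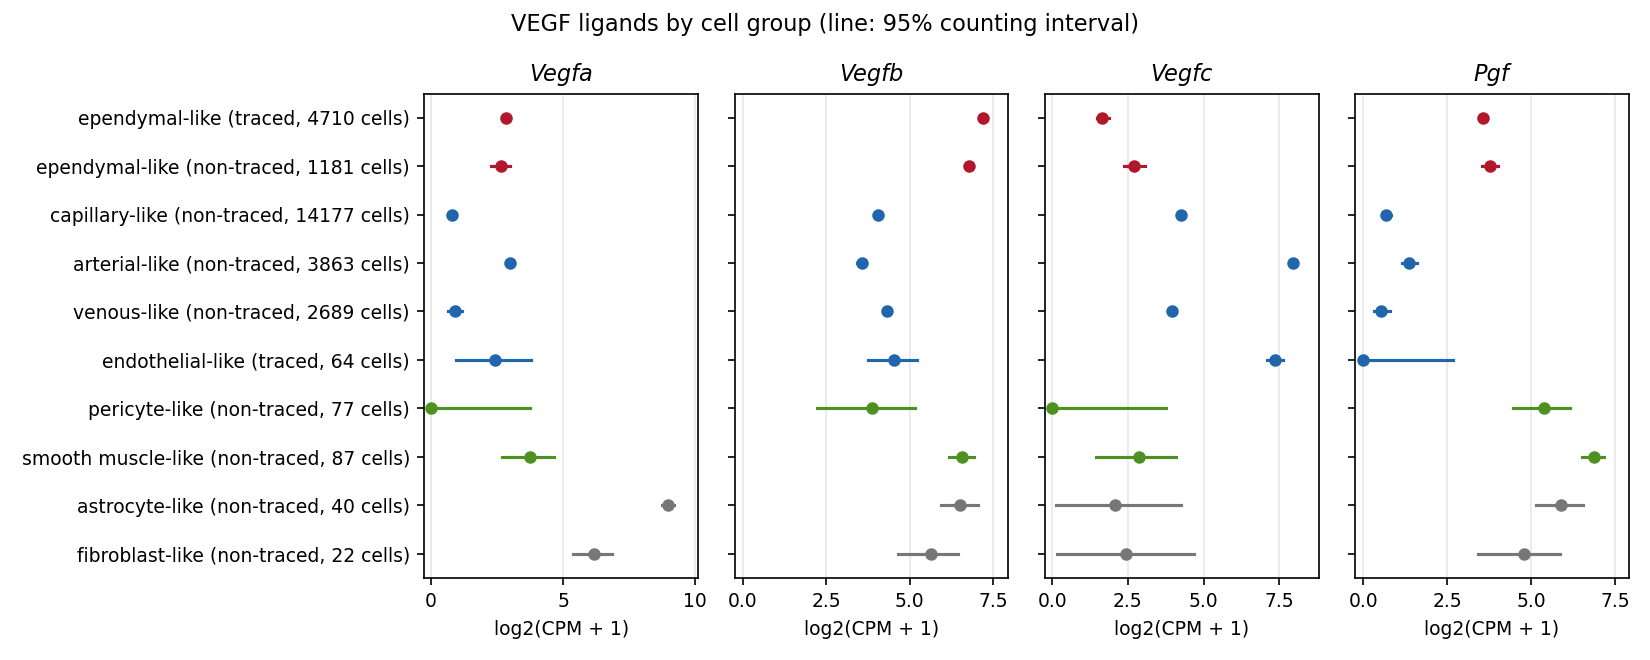
Ligand levels as log2(CPM + 1) in 10 cell groups; points are levels and lines exact 95% counting intervals (red, ependymal; blue, endothelial; green, mural; gray, other). Vegfb intervals of both ependymal-like groups (146 and 108 CPM) lie above those of all endothelial-like groups, and the Vegfc points of arterial-like (249 CPM) and traced endothelial-like cells (165 CPM) stand apart from the rest.

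The receptor kinase genes were endothelial, with levels in every endothelial-like group above all other groups. Flt1 was at 4361 CPM in arterial-like, 4021 CPM in capillary-like, 3125 CPM in venous-like and 3318 CPM in traced endothelial-like cells (3182 to 3458). Kdr was at 556 CPM in capillary-like (552 to 561), 526 CPM in venous-like (518 to 535), 390 CPM in traced endothelial-like (344 to 440) and 338 CPM in arterial-like cells (333 to 344). Flt4 was at 56.7 CPM in capillary-like (55.3 to 58.1), 49.1 CPM in venous-like (46.6 to 51.6), 45.6 CPM in arterial-like (43.4 to 47.7) and 36.8 CPM in traced endothelial-like cells (23.8 to 54.3), the last 3 with overlapping neighbours. Flt4 is often used as a marker of lymphatic endothelium. The lymphatic markers Prox1, Lyve1, Pdpn and Ccl21a summed to between 0.285 and 0.542 CPM in these endothelial segments, and Lyve1 did not exceed 0.415 CPM in any of them.

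Outside the endothelium the receptor kinases separated. Flt1 was at 236 CPM in pericyte-like (184 to 299), 148 CPM in smooth muscle-like (120 to 181), 140 CPM in ependymal-like cells of the non-traced library (132 to 147), 58.1 CPM in astrocyte-like (34.4 to 91.8) and 52.8 CPM in fibroblast-like cells (27.3 to 92.3). Kdr had 38.3 CPM in ependymal-like cells of the non-traced library (34.4 to 42.4) and between 7.79 and 20.3 CPM, on 2 to 6 UMIs, in the other 4 of these groups, whose intervals overlapped. Flt4 had 24 UMIs in non-traced ependymal-like cells (2.56 CPM, 1.64 to 3.82), 2 in pericyte-like cells and 0 in smooth muscle-like, astrocyte-like and fibroblast-like cells.

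Of the receptor kinase genes, Kdr was present in traced ependymal-like cells and Flt1 and Flt4 were near 0. In traced ependymal-like cells Flt1 had 5 UMIs in 4710 cells (0.109 CPM, 0.0355 to 0.255) and Flt4 had 0, which allows up to 0.0656 CPM, whereas Kdr had 1069 UMIs (23.4 CPM, 22.0 to 24.8). The 64 endothelial-like cells of the same library held 2255 UMIs of Flt1 and 265 of Kdr. A Kdr UMI was found in 819 of these 4710 cells (17.4%, 16.3 to 18.5) and an Flt1 UMI in 5 (0.106%). Thinned to 1000 UMIs, the shares were 2.23% for Kdr (1.83 to 2.69) and 0.0212% for Flt1. Among smooth muscle-like cells, taken as a type that should lack Kdr, 0 of 87 had a Kdr UMI after thinning (an upper bound of 4.15%) and 3.45% had one before it (0.717 to 9.75), at a median depth of 7306 UMIs. In the 4493 traced ependymal-like cells with no UMI of any of the 10 endothelial markers, Kdr was at 23.3 CPM (21.9 to 24.8).

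The neuropilin genes were each highest in an endothelial-like group but differed in ependymal-like and mural-like cells. Nrp1 was at 239 CPM in capillary-like (237 to 242), 231 CPM in traced endothelial-like (196 to 270), 182 CPM in venous-like (178 to 187) and 167 CPM in arterial-like cells (163 to 171). Pericyte-like cells had 101 CPM (30 UMIs, 68.4 to 145), fibroblast-like cells 66.0 CPM (37.0 to 109), smooth muscle-like cells 59.2 CPM (38 UMIs, 41.9 to 81.3) and astrocyte-like cells 54.9 CPM (32.0 to 87.8), 4 groups whose neighbours in this order overlapped. Traced ependymal-like cells had 9 Nrp1 UMIs in all (0.197 CPM, 0.0899 to 0.373). Nrp2 was led by venous-like cells at 156 CPM (152 to 161), with 47.1 CPM in capillary-like (45.8 to 48.3), 29.4 CPM in traced endothelial-like (18.0 to 45.4) and 13.8 CPM in arterial-like cells (12.6 to 15.0). It was at the same level in the ependymal-like cells of both libraries, 34.7 CPM in traced (33.0 to 36.4) and 34.6 CPM in non-traced cells (31.0 to 38.6), with a UMI in 26.0% (24.8 to 27.3) and 21.0% (18.7 to 23.4) of the cells before thinning and in 3.48% (2.98 to 4.05) and 3.39% (2.43 to 4.58) after it. Arterial-like cells, the endothelial segment lowest in Nrp2, had 1.01% after thinning (0.719 to 1.38), at a median depth of 8301 UMIs. In pericyte-like cells it had 1 UMI, at or under the floor of 3 counts.

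Arterial-like and venous-like cells were next set against capillary-like cells of the same library, to see how the family changes along the vessel. Of the 9 genes, 2 were at least 2-fold higher (Vegfc and Vegfa) and 1 was lower (Nrp2) in arterial-like cells, where 2.76% of 8436 genes were higher and 1.08% lower. Those shares cover genes at 10 CPM or more in either group, which 7 of the 9 reached, with 1 higher (Vegfc) and 1 lower. Vegfc differed by 3.71 on the log2 scale, 13.7 times the capillary-like CPM, and Vegfa by 2.21, on 271 against 82 UMIs. Nrp2 differed by -1.70, and Kdr, Nrp1, Vegfb and Flt4 by -0.72, -0.52, -0.49 and -0.31, all short of 2-fold but with intervals apart. Pgf differed by 0.69, on 62 against 69 UMIs. The median of the 9 differences was -0.31, beside 0.03 over all genes. In venous-like cells 1 gene was higher, Nrp2 by 1.71, and none was lower, against 1.35% and 0.743% of 8341 genes, with a median of -0.16 beside -0.02 over all genes. Flt1 differed by 0.12 in arterial-like and by -0.36 in venous-like cells. At the coarser clustering resolution of 0.4, Kdr (-1.22) and Pgf (1.74) passed 2-fold in arterial-like cells and Vegfc in venous-like cells (-2.08).

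The clusters within each segment were not uniform. Of the arterial-like clusters, cluster 10 (720 cells, led by Cytl1 and Fbln5) had Vegfc at 356 CPM (342 to 369), cluster 12 (475 cells, led by Pi16 and S100a4) at 284 CPM (269 to 300) and cluster 3 (2668 cells, led by Igfbp3) at 213 CPM (208 to 219). Vegfa followed another order, at 23.1 CPM in cluster 12 (18.8 to 28.0), 14.6 CPM in cluster 10 (12.0 to 17.6) and 2.18 CPM in cluster 3 (1.65 to 2.82). Cluster 12 also had 10.6 CPM of Pgf (7.81 to 14.1), where both other arterial-like clusters stayed below 1 CPM, and the lowest arterial Flt1 (2687 CPM) and Kdr (199 CPM). Cluster 12 carried more cycling markers than the others, 31.0 CPM against 4.74 and 2.07 CPM, and whether that bears on Pgf was not tested.

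Among the capillary-like clusters Vegfc ran from 2.81 CPM in cluster 2 (2.07 to 3.72) and 3.75 CPM in cluster 1 (3.06 to 4.55) over 11.6 CPM in cluster 0 and 34.5 CPM in cluster 6 to 58.1 CPM in cluster 5 (54.4 to 62.1). Nrp2 was highest where Vegfc was lowest, at 65.0 CPM in cluster 2 and 61.1 CPM in cluster 1, and lowest in cluster 5 at 20.6 CPM (18.4 to 23.1). Cluster 5 had Hey1 and Unc5b, both on the arterial list, among its 10 leading genes. Kdr went from 423 CPM in cluster 5 to 630 CPM in cluster 1, and Flt4 from 47.5 CPM to 63.3 CPM in the same clusters. Of the venous-like clusters, cluster 15 (219 cells, led by Lrg1 and Ackr1) had Nrp2 at 395 CPM (371 to 420) and cluster 4 (2470 cells, led by Icam1 and Cyp2e1) at 135 CPM (131 to 139). Cluster 15 had the lower Flt1, 2431 against 3187 CPM. Over these 10 clusters of 1 library, the 3 arterial-like ones had the highest Vegfc and the lowest Nrp2 levels, while Flt1 and Flt4 each stayed within a 2-fold range.

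**Figure D3:**
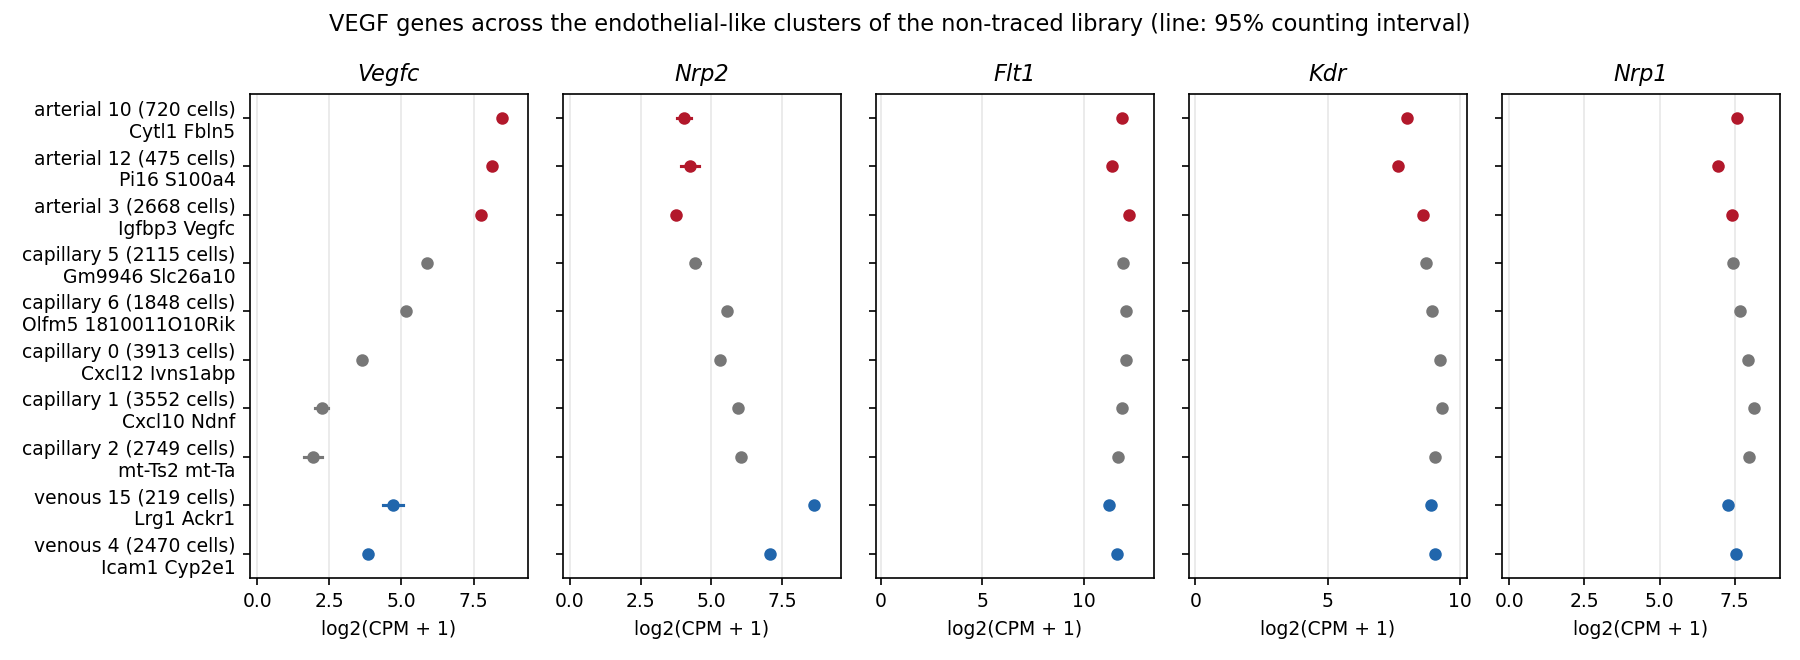
Levels of Vegfc, Nrp2, Flt1, Kdr and Nrp1 as log2(CPM + 1) in the 10 endothelial-like clusters of the non-traced library, labelled with segment, cluster number, cells and 2 leading genes (red, arterial-like; gray, capillary-like; blue, venous-like; lines, 95% counting intervals). Vegfc ranges from 356 CPM in arterial-like cluster 10 to 2.81 CPM in capillary-like cluster 2, Nrp2 is highest at 395 CPM in venous-like cluster 15, and Flt1 stays between 2431 and 4786 CPM.

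Mural-like cells were compared with endothelial-like cells of the same library as the other vascular compartment. Pgf, Vegfb and Vegfa were higher in the 164 mural-like cells, by 5.69, 2.10 and 1.62 on the log2 scale, and the other 6 genes were lower, against 16.7% of 9539 genes higher and 17.3% lower. Those shares cover genes at 10 CPM or more in either group, which 8 of the 9 reached. Vegfa, at 8.53 against 2.10 CPM, did not, and its 8 mural-like UMIs all came from smooth muscle-like cells. Vegfb was at 13.5 CPM in pericyte-like cells (3.68 to 34.6), beside 15.1 CPM in endothelial-like cells. The median of the 9 differences was -2.82, beside -0.03 over all genes. The receptor kinases differed most, by -5.31 (Kdr), -4.48 (Flt1) and -4.11 (Flt4), with Kdr at 11.7 CPM on 11 UMIs, Flt1 at 176 CPM and Flt4 at 2.13 CPM on 2 UMIs. Nrp1 differed least among the lower genes, by -1.55, at 72.5 against 214 CPM.

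Pericyte-like and smooth muscle-like cells differed in their ligands. Vegfb was at 93.5 CPM in smooth muscle-like and 13.5 CPM in pericyte-like cells, with intervals apart, and Pgf at 115 against 40.5 CPM, again apart. Within the pericyte clusters Pgf and the smooth muscle marker Acta2 were both higher in the cells with the lower endothelial share. The 24 cells with under 0.1% endothelial UMIs had 112 CPM of Pgf (9 UMIs, 51.1 to 212) and 658 CPM of Acta2. The 53 cells between 0.1% and 0.2% had 13.9 CPM of Pgf (3 UMIs, 2.87 to 40.7) and 102 CPM of Acta2. The part of smooth muscle RNA in the pericyte-like Pgf level was not tested.

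Because endothelial RNA was present in the non-traced ependymal-like and mural-like cells, each VEGF gene was set against what that RNA would carry. The ratio of a gene to the 10 endothelial markers in endothelial-like cells, multiplied by the marker UMIs of another group, gave a reference level for that group. In non-traced ependymal-like cells Flt1 was at 140 CPM (132 to 147), 0.883 times its reference of 158 CPM. Nrp1 was at 8.23 CPM, 0.957 times its reference, and Flt4 at 2.56 CPM, 1.21 times its reference, with the reference inside both intervals. Kdr was at 38.3 CPM (34.4 to 42.4), above its reference of 20.3 CPM, and Vegfc at 5.56 CPM (4.15 to 7.29), above its reference of 2.68 CPM. How much of either came from endothelial RNA was not tested. Nrp2 was at 14.7 times and Vegfb at 178 times the reference.

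In pericyte-like cells Flt1 (236 CPM) was at 1.05 times and Kdr (20.3 CPM) at 0.701 times the reference, whereas Nrp1 was at 8.26 times and Pgf at 885 times it. Smooth muscle-like cells gave 0.949 for Flt1, 0.390 for Kdr, 6.99 for Nrp1 and 3642 for Pgf. Across the pericyte clusters, Flt1 was lower the lower the share of endothelial marker UMIs, from 3576 CPM in cells above 1% over 2272 CPM (0.5% to 1%), 683 CPM (0.2% to 0.5%) and 278 CPM (0.1% to 0.2%) to 124 CPM in cells under 0.1%. Nrp1 was at 231, 194, 88.5, 107 and 87.0 CPM in the same bins, the last 2 on 23 and 7 UMIs. The marker gene Cldn5 went from 6081 to 62.1 CPM over these bins. Cldn5 is among the endothelial markers whose share set the bins, so its fall follows from how the bins were cut. It is no separate check on the Flt1 levels.

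**Figure D4:**
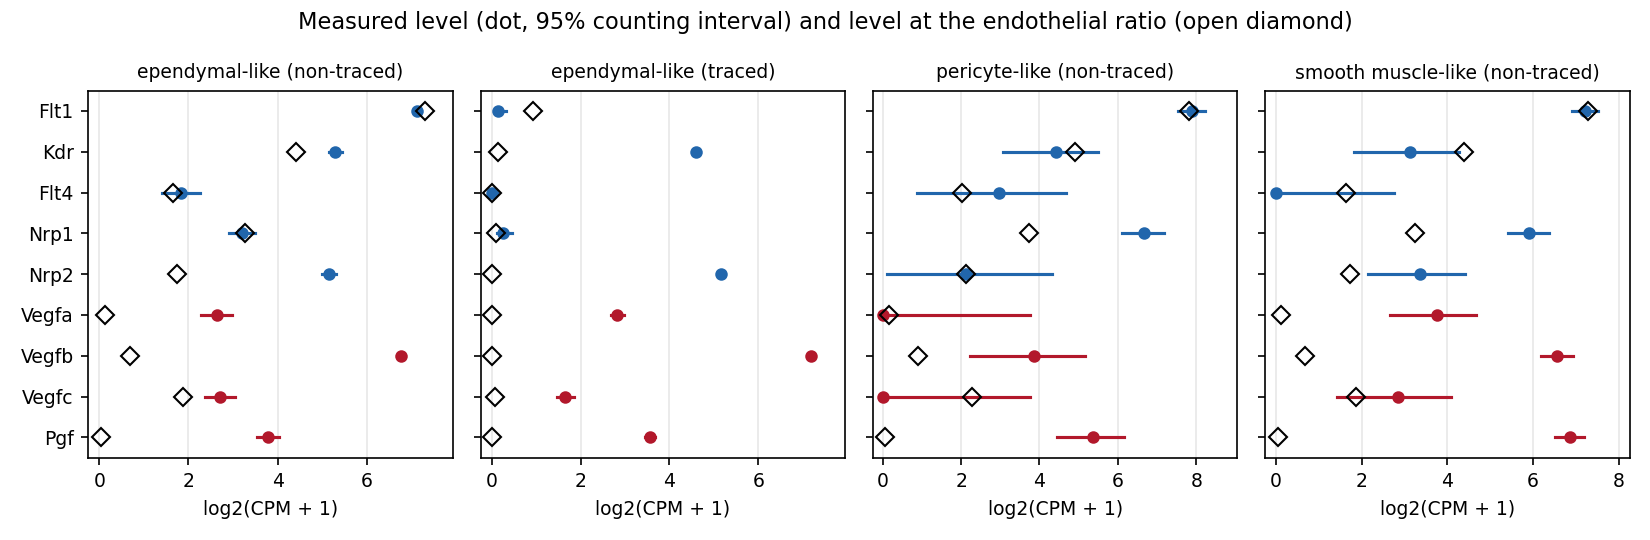
Measured level of each VEGF gene as log2(CPM + 1) (points with 95% counting intervals; blue, receptors; red, ligands) and the level that its ratio to endothelial markers in endothelial-like cells gives (open diamonds), in 4 cell groups. Flt1 points lie close to their diamonds in the 3 non-traced groups, Kdr lies above its diamond in both ependymal-like groups (38.3 and 23.4 CPM), and Nrp1 does so in both mural-like groups.

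Traced and non-traced ependymal-like cells were then compared with each other. No gene of the 9 was at least 2-fold higher in traced cells and 4 were lower, where 0.809% of 9643 genes were higher and 2.21% lower. Only 5 of the 9 reached the 10 CPM that those shares require, and of these Flt1 alone was lower. The 4 lower genes were Flt1 by -6.99, Nrp1 by -2.95, Flt4 by -1.83 and Vegfc by -1.05 on the log2 scale, with a median of -0.69 over the 9 genes beside 0.02 over all. Vegfc, on 99 against 52 UMIs, passed 2-fold in 9 of 13 alternative settings and differed by -0.15 when both libraries were integrated. Flt4 had 24 UMIs in non-traced and 0 in traced cells, at least 39.1-fold lower when the traced count is set at the floor of 3, a ratio that leaves out the counting error of the 24 UMIs. The references given above for Flt1, Nrp1, Flt4 and Vegfc apply to these non-traced levels, and the 10 endothelial markers differed in the same direction, 893 CPM in non-traced against 5.14 CPM in traced cells. In the 105 non-traced ependymal-like cells with no endothelial marker UMI, Flt1 was at 54.4 CPM (37 UMIs, 38.3 to 75.0) and Nrp1 at 0, which allows up to 4.41 CPM. Vegfb was 1.35 times as high in traced cells, with intervals apart, Kdr 1.64 times as high in non-traced cells, and the intervals of Nrp2, Vegfa and Pgf overlapped. For Kdr too a reference applies, 20.3 CPM beside the measured 38.3 CPM in non-traced cells. With ependymal-like cells under the 0.2% limit only, Kdr differed by -0.32 in place of -0.69. The part of endothelial RNA in the Kdr difference was not tested. The non-traced cells also had more mitochondrial UMIs, a median of 5.76% against 3.98%, and 357 of 1181 against 3790 of 4710 passed the stricter filter. The sort and the library cannot be told apart.

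Ependymal cells were split into 9 clusters in the traced and 2 in the non-traced library. Vegfb lay between 116 CPM in cluster 5 (led by Sntn and Anxa8) and 207 CPM in the 97 cells of cluster 8 (183 to 234), which was led by the cycling gene Mki67, and at 108 CPM in both non-traced clusters. Vegfa was at 15.8 CPM in cluster 8 (9.62 to 24.3) and at 10.8 CPM in cluster 2 (8.32 to 13.7), led by the immediate early genes Atf3 and Egr1, and between 2.62 and 8.20 CPM in the other 7. Immediate early and dissociation markers summed to 20374 CPM in cluster 2, against 915 to 9202 CPM in the other traced ependymal-like clusters, and cluster 8 had 5029 CPM. Their part in the Vegfa level was not tested.

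A cluster led by Ucma was found in both libraries, and it was singled out after its values had been seen. Kdr was at 6.43 CPM in its 212 traced cells (14 UMIs, 3.51 to 10.8) against 24.2 CPM in the other traced ependymal-like cells (22.8 to 25.7). In the non-traced library it was at 23.9 CPM in 378 cells (18.6 to 30.2) against 44.7 CPM in the others (39.7 to 50.1). Nrp2 was lower there as well, at 22.5 against 35.3 CPM in traced and 25.6 against 38.6 CPM in non-traced cells, with intervals apart in both libraries. Pgf was at 22.0 CPM (16.3 to 29.2) against 10.2 CPM (9.31 to 11.2) in traced cells, and at 16.3 against 11.3 CPM with overlapping intervals in non-traced cells.

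**Figure D5:**
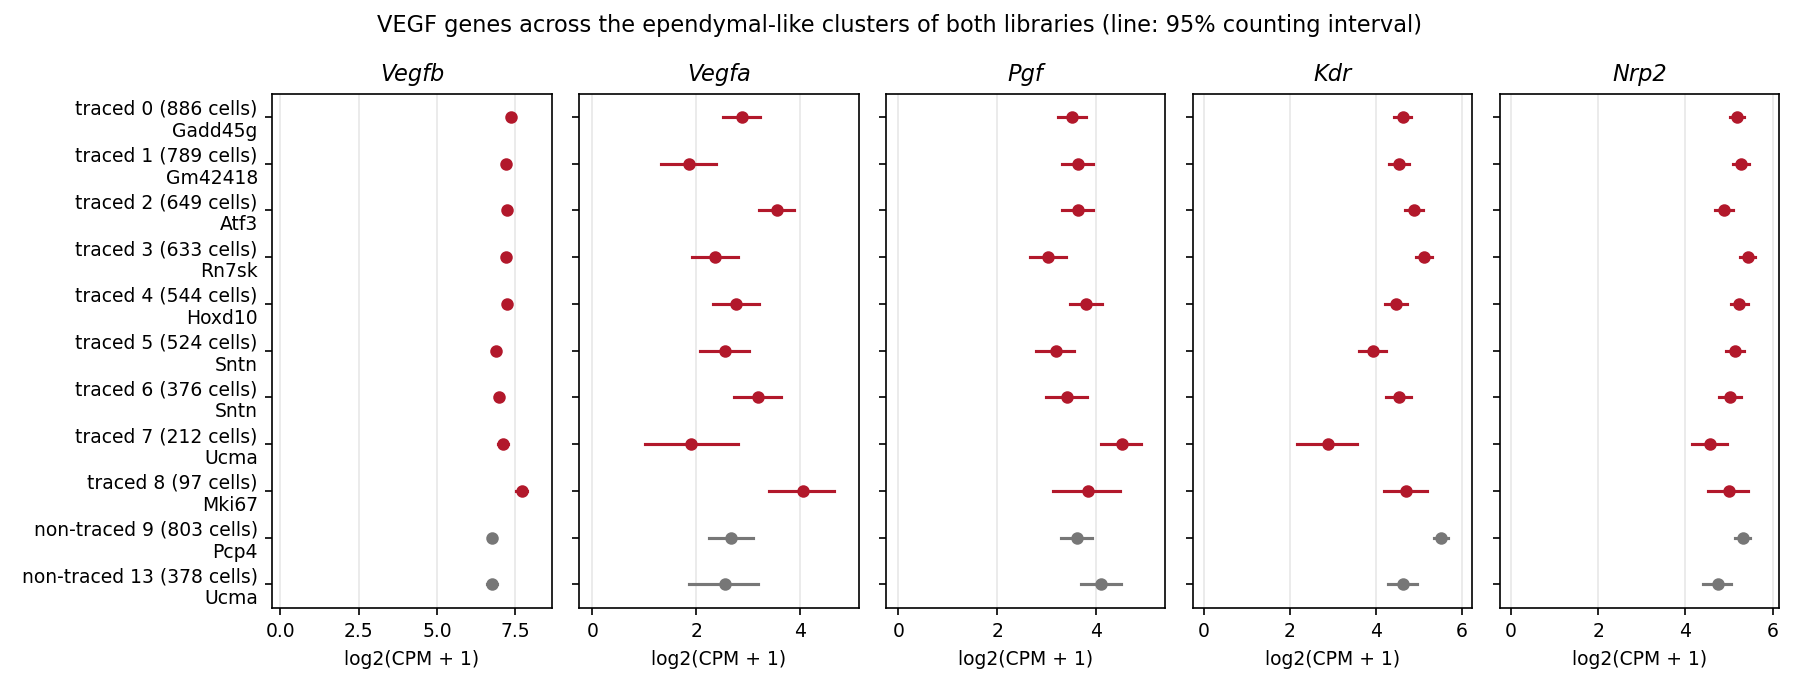
Levels of Vegfb, Vegfa, Pgf, Kdr and Nrp2 as log2(CPM + 1) in the 9 traced (red) and 2 non-traced (gray) ependymal-like clusters, labelled with cluster number, cells and the leading gene (lines, 95% counting intervals). Vegfb lies between 108 and 207 CPM, Vegfa is highest in traced clusters 8 and 2 (15.8 and 10.8 CPM), and Kdr is lowest in the Ucma-led traced cluster 7 (6.43 CPM).

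The wider pathway was counted over 60 genes that had named no cell group: a further ligand, regulators of the hypoxia response, receptor partners, signal relay genes, genes known to respond to VEGF and class 3 semaphorins. Of the 44 that reached 10 CPM in endothelial-like or ependymal-like cells, 22 were higher and 5 lower in endothelial-like cells, beside the 19.2% and 26.9% of all genes given above. The median of the 44 was 1.02 on the log2 scale, beside -0.08 over all genes. The relay genes made up 13 of the 22. The semaphorin gene Sema3c (528 against 23.6 CPM), the Notch ligand gene Dll4 (67.8 against 2.67 CPM), the oxygen-regulated transcription factor gene Epas1 (1038 against 59.6 CPM), the protein kinase C gene Prkcb (24.0 against 1.28 CPM) and the small heat shock protein gene Hspb1 (3144 against 411 CPM) differed most upwards. The prolyl hydroxylase gene Egln3 (0.132 against 17.1 CPM) and the semaphorin gene Sema3e (0.243 against 18.8 CPM) differed most downwards. Among lower genes at 20 CPM or more in either group were Prkca (2.76 against 24.9 CPM), the integrin gene Itgav (12.7 against 52.6 CPM) and the kinase gene Src (7.29 against 23.5 CPM).

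In mural-like against endothelial-like cells 7 of 41 pathway genes were higher and 12 lower, beside 16.7% and 17.3% of all genes. Their median was -0.41, beside -0.03 over all genes. The vessel-destabilising ligand gene Angpt2 (34.1 against 5.11 CPM), Itgav (59.7 against 12.7 CPM) and Pik3r1, a regulatory subunit of PI3 kinase (130 against 35.8 CPM), led the first set, and Sema3c, the nitric oxide synthase gene Nos3 (8.53 against 182 CPM) and Dll4 the second. In arterial-like against capillary-like cells 3 of 43 were higher and none lower, beside 2.76% and 1.08% of all genes. Among the higher ones were Sema3f (15.7 against 0.521 CPM) and the phospholipase gene Plcg2 (27.2 against 2.35 CPM). In venous-like against capillary-like cells none of 41 passed 2-fold, where 1.35% of all genes were higher and 0.743% lower. Dll4 came nearest at 33.1 against 63.3 CPM. Between traced and non-traced ependymal-like cells 1 of 41 was higher, Egln3 (35.6 against 17.1 CPM). The 2 lower genes were Sema3c (2.75 against 23.6 CPM) and Epas1 (12.2 against 59.6 CPM), both of them at high levels in endothelial-like cells. Over all genes 0.809% were higher and 2.21% lower in that comparison.

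Genes with the most similar pattern were sought by Pearson's r of log2(CPM + 1) over the 10 named cell groups, among 6982 genes at 50 CPM or more in some group. The groups share libraries and, in part, endothelial RNA, so r is given as a description with no p. Flt1 was nearest to Ly6c1, Cldn5 and Slco1a4 (r = 0.995 to 0.992), the first pair being endothelial markers used in naming. Kdr was nearest to Tdrp, Bcl6b and Socs2 (0.996 to 0.989), Flt4 to Dach1, Tbx1 and Card10 (0.992 to 0.987) and Nrp1 to Elovl1 and Arpc1b (0.973 and 0.963). For Nrp2 the best values were lower, 0.885 for Il6ra and 0.884 for Dapk1. Vegfc was nearest to Igfbp3, Atp13a3 and Egfl8 (0.972 to 0.961), Vegfb to Ddo, Rragd and Sccpdh (0.958 to 0.945), Vegfa to Efna2, Hmgcs1 and Prodh (0.960 to 0.952) and Pgf to Slc25a4, Flot2 and Fmc1 (0.956 to 0.946).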

How the data were processed

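Per the labels and the study's methods, the authors sequenced 10x 3′ libraries, aligned them to mm10 with the reporter sequence added (Cell Ranger 3.0.2, STAR 2.5.1b) and deposited UMI counts per gene and cell. Every deposited cell passed the study's filter (50 genes, 10% mitochondrial genes). Here each library was clustered on its own in Seurat (5.3.0, 2000 features without VEGF family, pathway and reporter genes, 20 components, resolution 0.8). The study integrated both libraries. With integration as run here, no cell was named pericyte-like and no traced cell endothelial-like. A cluster took a class when its markers were in 50% of its cells on average. Endothelial-like clusters became arterial-like or venous-like when those markers lay at least 1 above the clusters' mean on the log2 scale, and capillary-like otherwise, so capillary markers played no part. Mural-like, astrocyte-like and fibroblast-like cells held under 0.2% endothelial marker UMIs. These thresholds were set after seeing the data, and the members and lists were chosen with earlier results of these data known. Doublets were kept. Scrublet called 2170 non-traced and 0 traced cells. Counts were summed per group as CPM, with Poisson and Clopper-Pearson intervals. Pathway genes were named by rule, at most 5 each way per comparison from 20 CPM on, and those nearest in pattern by the 3 highest r, of which 1 is not reported here. Gene positions come from the mm10 annotation and promoters from RefSeq. Calls were tested on simulated counts. Alternatives covered resolution, integration, doublets, cell filter, averaging, thinning, foreign UMIs, scaling, pseudocount, minimum level and marker limit.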

Additional observations from a re-analysis of the deposited data

How the results depend on the processing

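The log2 differences of the 9 genes were recomputed under 14 alternatives, 12 planned and 2 chosen after seeing the data (a limit of 0.5% endothelial UMIs for mural-like cells, and ependymal-like cells under the 0.2% limit only), each applied where it bears on the comparison. Of 567 values, 438 stayed within the counting interval of the reported value, 129 moved further and 0 called values changed sign, and 40 of 45 differences stayed on their side of 2-fold throughout. The exceptions were Vegfa between endothelial-like and ependymal-like cells (-1.28 to -0.90), Vegfc between traced and non-traced ependymal-like cells (-1.60 to -0.15), Kdr (-1.22 to -0.72) and Pgf (-0.14 to 1.74) between arterial-like and capillary-like cells, and Vegfc between venous-like and capillary-like cells (-2.08 to 0.32). With members of at least 10 CPM only, 1 gene was higher in arterial-like cells and 1 lower in traced ependymal-like cells. At resolution 0.4, 2 genes were lower in arterial-like and 1 in venous-like cells, and Pgf passed 2-fold upwards in arterial-like cells. Flt1 in non-traced ependymal-like cells ranged from 52.7 CPM, with cells holding UMIs of another class left out, to 237 CPM under the stricter filter. The former setting kept 355 of the 1181 cells, not all of them free of endothelial marker UMIs. Traced minus non-traced Flt1 was -3.68 with the libraries integrated. Integration and the removal of cells with UMIs of another class left under 20 mural-like cells and gave no mural value. Centring moved the median gene by 0.07 at most. The cause of these moves was not tested. No paired analysis was possible because each group was 1 library and no test was run. The pericyte-like, smooth muscle-like, astrocyte-like and fibroblast-like values rest on 22 to 87 cells each.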

Other observations

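Of the regulators of the oxygen response, which control Vegfa in many cells, 7 reached 10 CPM in endothelial-like or ependymal-like cells of the non-traced library. In the endothelial-like cells 2 were higher, 1 lower and 4 neither, beside 19.2% higher and 26.9% lower over all genes. Between mural-like and endothelial-like cells none of 6 passed 2-fold, where 16.7% of all genes were higher and 17.3% lower. Epas1, the gene of HIF-2α, was at 1529 CPM in arterial-like, 947 CPM in capillary-like and 756 CPM in venous-like cells, at 645 CPM in pericyte-like and 840 CPM in smooth muscle-like cells, and at 12.2 CPM in traced ependymal-like cells. Egln3, the gene of an oxygen-sensing prolyl hydroxylase, was instead higher in ependymal-like cells, at 35.6 CPM in the traced and 17.1 CPM in the non-traced ones. It was at or below 0.287 CPM in the 3 endothelial segments, with 1 UMI in pericyte-like and 0 in smooth muscle-like cells. Hif1a lay between 45.8 and 119 CPM in all ependymal-like, endothelial-like and mural-like groups and at 336 CPM in astrocyte-like cells.

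Levels of 4 class 3 semaphorin genes were as follows. Sema3c was at 586 CPM in capillary-like, 462 CPM in arterial-like and 401 CPM in venous-like cells, against 2.75 CPM in traced ependymal-like cells. Sema3e was highest among these groups in ependymal-like cells, at 25.7 CPM in the traced and 18.8 CPM in the non-traced library, and Sema3a was at 8.50 and 6.52 CPM there. Sema3f reached 15.7 CPM in arterial-like and 14.0 CPM in smooth muscle-like cells, and 0.521 CPM in capillary-like cells.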
